A study of Mus musculus with 60 samples.

Results

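The prefrontal cortex of lithium-treated mice was compared between the genotypes labelled HT (heterozygous for Trip12) and WT (wild type). The comparison took every library whose name gives lithium as the treatment: 10 HT and 10 WT libraries, or 20 of the 60 libraries in the series. Each genotype was represented by 5 females and 5 males. All mice were C57BL/6J and were killed on postnatal day 25, after 3 weeks in which the drug reached them in maternal milk (postnatal days 3 to 24). Both genotypes compared here therefore carried the lithium treatment. The remaining libraries, 20 from vehicle and 20 from fluoxetine mice of the same age, genotypes and sexes, served only to set values side by side. The labels do not say which kind of Trip12 allele the HT mice carry, give no lithium dose, and do not name the animals or their litters. The p-values therefore reflect only how much these libraries vary, which may in part be technical.

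Trip12 encodes a HECT-type ubiquitin ligase of the nucleus, which marks proteins for degradation and takes part in chromatin regulation and the DNA damage response. Heterozygous loss of TRIP12 in people is linked to intellectual disability and autism. Lithium, used to treat bipolar disorder, blocks inositol monophosphatase and the GSK3 kinases, and thereby touches Wnt signalling and the recycling of inositol in neurons.

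Read totals recovered from the deposited values were 32.1 to 35.9 M (mega) per library in lithium females and 25.1 to 33.5 M in lithium males. HT libraries held on average 0.395 M more reads than WT libraries (exact permutation within sex, two-sided p = 0.709). The direction differed between the sexes: the difference was -0.637 M in females (exact permutation p = 0.381) and 1.43 M in males (exact permutation p = 0.484). Xist and the Y-linked Ddx3y matched the labelled sex in all 20 libraries. Cortical excitatory neuron markers were present in every library, with Slc17a7, the vesicular glutamate transporter of cortical excitatory neurons, between 36450 and 53239 normalized counts. Markers of the olfactory bulb, a neighbouring tissue, set some libraries apart. Doc2g, expressed in olfactory bulb projection neurons, ran from 105.5 to 2966 normalized counts across the 20 libraries. The mean centred log2 level of 14 such markers was above 1 in 2 of 5 HT females, 2 of 5 HT males, 4 of 5 WT females and 0 of 5 WT males. All 14 markers were tested, 3 had a log2 fold change above 0 and none had an unadjusted p under 0.05. Their summed level ran from 12741 to 30820 in HT and from 12936 to 33332 in WT libraries. Over both sexes the score was lower by 0.45 in HT (exact permutation within sex, two-sided p = 0.5), but the median log2 fold change of the markers was -1.90 in females and 0.68 in males. Over both sexes that median was -0.45 in limma, 0.14 in edgeR and 0.22 in DESeq2. The part of this in the genotype differences below was examined only through a fit with the score as a covariate, chosen after the data had been examined.

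**Figure D1:**
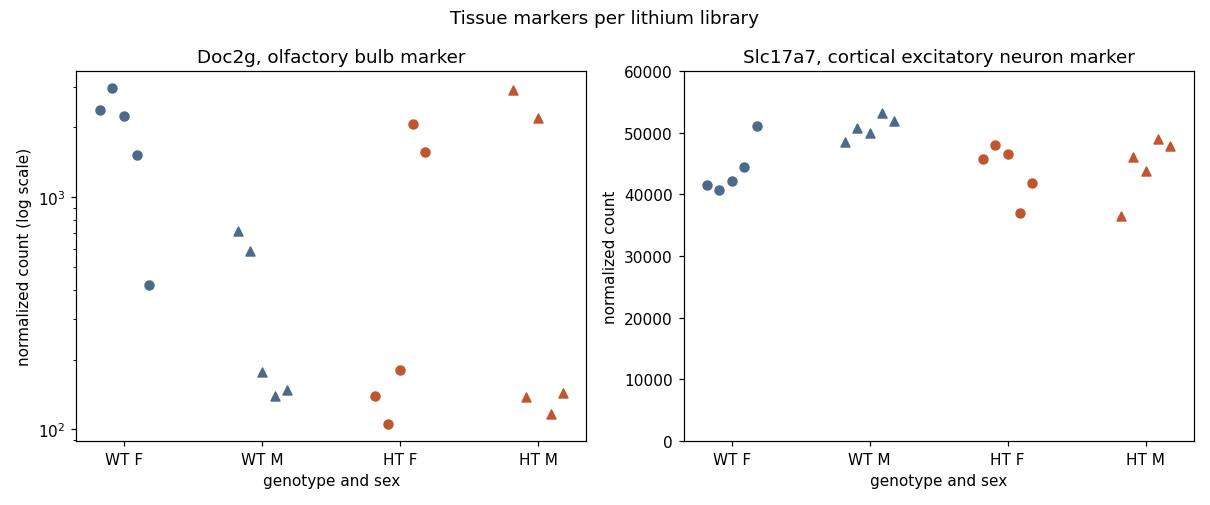
Normalized counts of Doc2g (log axis) and Slc17a7 (linear axis) in each of the 20 lithium libraries, by genotype and sex, 1 point per library. Doc2g runs from 105.5 to 2966, high in most WT females and in 2 HT libraries of each sex, while Slc17a7 lies between 36450 and 53239 in all of them.

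Trip12 RNA itself was not lower in the libraries labelled HT. Its normalized count was lowest at 5489, with a median of 6003 and a highest value of 6332 in HT, against 5179, 5683 and 5956 in WT. The ranges overlapped, and 8 of 10 HT libraries lay above the WT mean of their own sex. The log2 fold change (HT minus WT, on log2 of the normalized count + 1) was 0.08 ± 0.03 (SE), which did not pass limma's test (adjusted p = 0.304, Benjamini-Hochberg over 17157 genes). An exact permutation of the labels within sex gave a two-sided p of 0.0114 for this single gene. Under vehicle and fluoxetine the values for Trip12 were 0.12 ± 0.04 and 0.13 ± 0.04. The RNA level thus gives no check of the genotype labels, because the allele is not described, and HT means "labelled HT" throughout. Among 153 other genes tested within 10 Mb of Trip12 on chromosome 1, none was called and 13 had an unadjusted p under 0.05, where 12.4% of all genes tested did.

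Under lithium 12 genes differed between the genotypes, 5 higher (0.0291% of genes tested) and 7 lower (0.0408%) in HT, most by small amounts. A gene was called at an adjusted p under 0.05 in limma-trend with sex as a block. The genes called were 0.0699% of the 17157 tested, and their log2 fold changes ranged from 0.16 to 0.70 in size. The highest of these was Irf7, the transcription factor that drives type I interferon production. The smallest p belonged to Rit2, a Ras-like small GTPase of neurons. At an unadjusted p under 0.05 there were 2122 genes (12.4%), 1114 higher (6.49%) and 1008 lower (5.88%). The count of calls depended on the settings. It was 1 with sequencing depth as a covariate or without the sex term. With same-numbered libraries of each sex as a block no gene was called, and Rit2 had an adjusted p of 0.061 in limma. The count was 119 (0.694%) with the olfactory bulb score as a covariate, 13 by edgeR and 213 by DESeq2. All 12 genes were among those called by edgeR, by DESeq2 and with the olfactory bulb score. Leaving out single libraries gave between 1 call, without any of 8 libraries, and 38, without HT female 5.

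Rit2 gave the clearest separation. Its normalized counts ran from 1224 to 1515 in HT, with a median of 1409, and from 1591 to 1811 in WT, with a median of 1744. Every HT library lay below every WT library. Rit2 fell by 0.31 ± 0.04 on the log2 scale (adjusted p = 0.0065 in limma). The fold change was -0.31 in females and -0.31 in males, and the gene stayed called when any of the 20 libraries was left out. HT and WT ranges were separate for only 6 genes of all those tested (0.0350%), which also include Zhx3, Scrn3 and 6330403K07Rik.

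Other genes that fell in HT act in RNA splicing, chromatin and heme synthesis. Snrpb2, a spliceosomal protein, had normalized counts of 487.5 to 685.1 in HT (median 581.5) and of 634.1 to 745.9 in WT (median 702.5). Its ranges overlapped, and it fell by 0.28 ± 0.05 (adjusted p = 0.045 in limma). Tra2b, a splicing regulator, ran from 1461 to 1840 in HT (median 1642) and from 1794 to 2056 in WT (median 1942), and fell by 0.21 ± 0.04 (adjusted p = 0.045 in limma). All 10 HT libraries lay below the WT mean of their sex for both genes, although the highest HT libraries reached into the WT range. Hmgb1, an abundant chromatin protein that bends DNA, ran from 4441 to 5578 in HT and from 5053 to 6226 in WT. It fell by 0.22 ± 0.04 (adjusted p = 0.045 in limma), a value that is uncertain because the annotation lists 10 pseudogene copies named after Hmgb1.

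Uros, an enzyme of heme synthesis, had 446 to 530.5 normalized counts in HT (median 482.4) and 506.7 to 608.0 in WT (median 559.8). It fell by 0.20 ± 0.04 (adjusted p = 0.045 in limma), with overlapping ranges and all 10 HT libraries below the WT mean of their sex. Krt12, a keratin known from the cornea, ran from 169.5 to 222.4 in HT (median 204.3) and from 221.3 to 291.8 in WT (median 258.7), so that the ranges barely touched. It fell by 0.33 ± 0.06 (adjusted p = 0.045 in limma). The remaining gene that fell, 6330403K07Rik, has no settled function and, as the called gene outside the naming rule, was named after its values were seen. It ran from 3964 to 4397 normalized counts in HT and from 4482 to 4946 in WT, without overlap, and fell by 0.16 ± 0.03 (adjusted p = 0.045 in limma).

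The 5 genes that rose were Irf7, Stat6, Ctss, Zhx3 and Crocc. Irf7 had 65.51 to 121.7 normalized counts in HT (median 95.28) and 41.95 to 77.09 in WT (median 55.5). It rose by 0.70 ± 0.12 (adjusted p = 0.045 in limma), and all 10 HT libraries lay above the WT mean of their sex, although the lowest 2 HT values were inside the WT range. Stat6, the transcription factor of interleukin 4 and interleukin 13 signalling, ran from 313 to 378 in HT (median 356.4) and from 262.4 to 315.8 in WT (median 289.5). It rose by 0.27 ± 0.05 (adjusted p = 0.045 in limma), and only its lowest HT library fell inside the WT range.

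Ctss, a lysosomal cysteine protease made mainly by microglia in brain, had 1477 to 2140 normalized counts in HT (median 1647) and 1160 to 1523 in WT (median 1363). It rose by 0.34 ± 0.07 (adjusted p = 0.049 in limma) with a small overlap of the ranges. Zhx3, a zinc finger and homeobox repressor, ran from 1986 to 2305 in HT and from 1829 to 1970 in WT, with no overlap, and rose by 0.17 ± 0.03 (adjusted p = 0.045 in limma). Crocc, the structural protein of the ciliary rootlet, ran from 2642 to 3830 in HT and from 1998 to 2943 in WT. It rose by 0.37 ± 0.07 (adjusted p = 0.049 in limma), and 9 of 10 HT libraries were above the WT mean of their sex. Several of these genes overlap a gene on the other strand, and strand use in the counting is not given in the sources used here. Antisense partners with shared exonic sequence had log2 fold changes near 0: 0.02 for Phrf1 beside Irf7, -0.03 for Nab2 beside Stat6, 0.05 for Plcg1 beside Zhx3, 0.04 for Uspl1 beside Hmgb1 and 0.00 for A830036E02Rik beside Krt12.

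**Figure D2:**
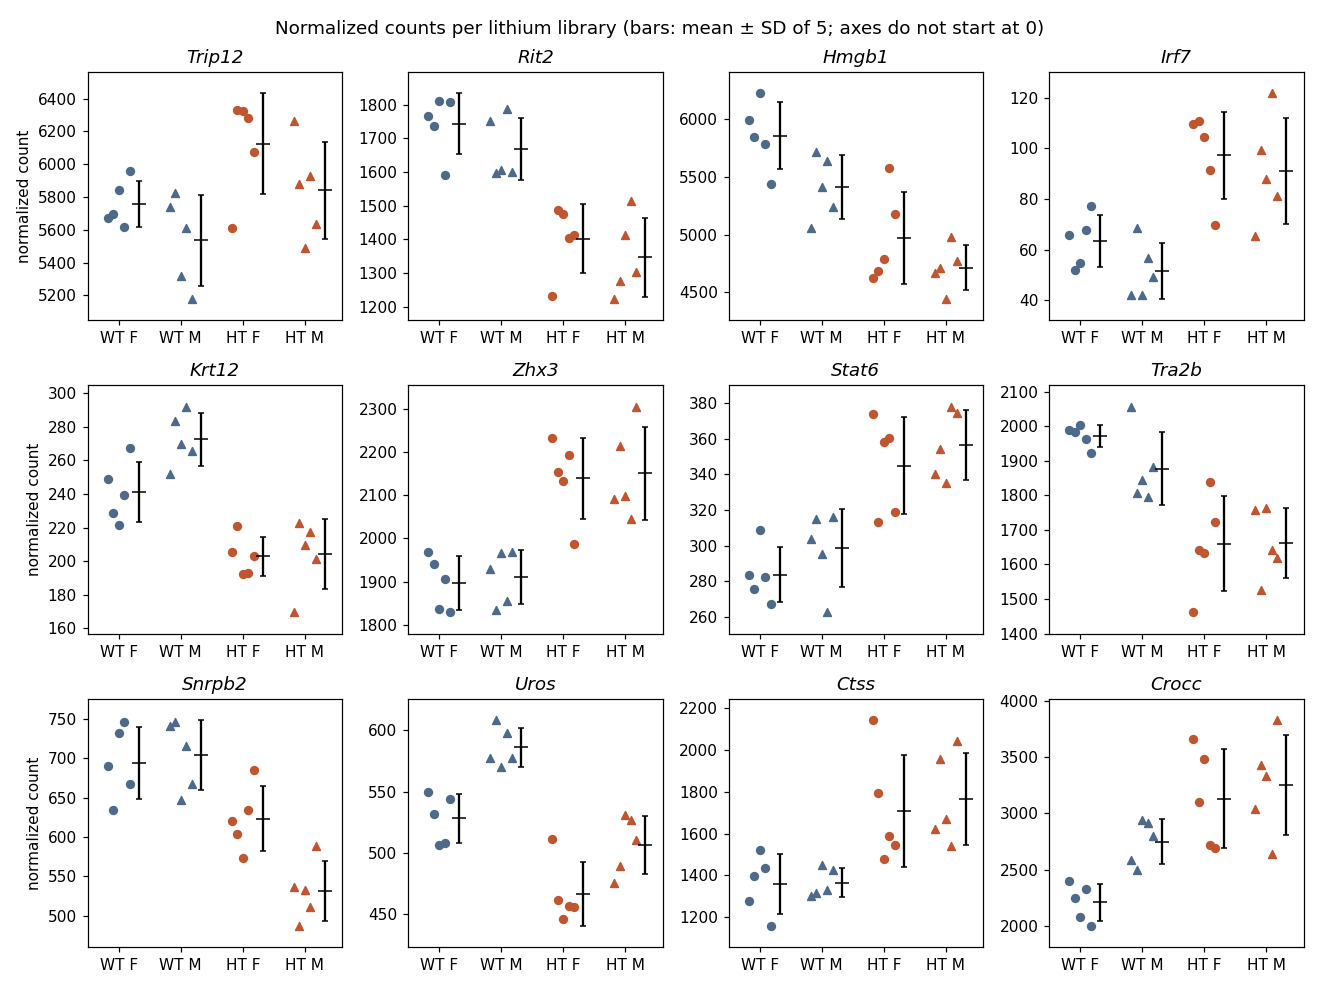
Normalized counts of Trip12 and the 11 called genes with a settled symbol in the 20 lithium libraries, 1 point per library by genotype and sex (F, female; M, male), with bars for the mean ± SD of 5; the vertical axes do not start at 0. Trip12 overlaps between genotypes, while for Rit2 every HT point (1224 to 1515) lies below every WT point (1591 to 1811), and for Zhx3 every HT point lies above.

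A further 9 genes with the next smallest p just missed the threshold, with adjusted p from 0.051 to 0.057 in limma. The values among them were higher in HT for Pcdh8, an activity-induced protocadherin (0.39 ± 0.08), Pcnx3 (0.25 ± 0.05) and Man2b1, the lysosomal alpha-mannosidase (0.21 ± 0.04). They were lower for Scrn3 (-0.27 ± 0.05), Ublcp1, a phosphatase that acts on the proteasome (-0.26 ± 0.05), Cfdp1 (-0.24 ± 0.05), Rnf227 (-0.21 ± 0.04), Morf4l1, a chromodomain protein of chromatin complexes (-0.19 ± 0.04), and Prelid3b (-0.17 ± 0.04). Scrn3 was the member of this group whose genotypes did not overlap, at 564.7 to 704.8 in HT and 706.7 to 949.1 normalized counts in WT.

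The vehicle and fluoxetine libraries share no library with the lithium comparison, so the fold changes of the 20 genes named from it could be read in them. Their SE and adjusted p came from a joint fit over all 60 libraries. These therefore share the spread of the lithium libraries in which the genes were picked, and the calls below are not independent of that choice. Under vehicle 20 of the 20 had the same sign as under lithium, against 60.1% of all genes, and under fluoxetine 19 of 20 did, against 58.8%; Pcnx3 was the exception at -0.04 ± 0.06. Under vehicle 2 of the 20 were called, against 0.152% of all genes: Man2b1 (0.18 ± 0.04, adjusted p = 0.036 in limma) and Prelid3b (-0.16 ± 0.04, adjusted p = 0.024). Under fluoxetine 3 were called, against 0.135%: Tra2b (-0.24 ± 0.04, adjusted p = 0.0025 in limma), Prelid3b (-0.16 ± 0.04, adjusted p = 0.030) and Krt12 (-0.30 ± 0.07, adjusted p = 0.032). Krt12 was at -0.27 ± 0.07 under vehicle (adjusted p = 0.054), close to its lithium value of -0.33 ± 0.06. These genes were picked for their small p under lithium, so a smaller value elsewhere is what the choice itself favours.

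Some of the genes called under lithium had small values elsewhere. Irf7 was at 0.06 ± 0.13 under vehicle and 0.18 ± 0.13 under fluoxetine, and Zhx3 at 0.02 ± 0.04 and 0.10 ± 0.04. Rit2 was at -0.11 ± 0.05 and -0.12 ± 0.05. Tests of the difference itself did not pass for any of them. The genotype difference under lithium minus that under vehicle was 0.64 ± 0.19 for Irf7 (adjusted p = 0.80 in limma), 0.16 ± 0.06 for Zhx3 (adjusted p = 0.85) and -0.21 ± 0.07 for Rit2 (adjusted p = 0.85). Over all genes the test of lithium minus vehicle called 0 of 17804 (0.00%), with 996 at an unadjusted p under 0.05 (5.59%) and 0 called by edgeR or DESeq2. Lithium minus fluoxetine called 0 (0.00%), with 1238 at an unadjusted p under 0.05 (6.95%), 0 by edgeR and 1 by DESeq2. In the first of these the smallest p among named genes belonged to Dph6, a diphthamide synthesis enzyme (-0.27 ± 0.07, adjusted p = 0.80), and Acot5, a peroxisomal thioesterase (0.64 ± 0.16, adjusted p = 0.80). In the second it belonged to Fap, a fibroblast protease (-0.62 ± 0.14, adjusted p = 0.55).

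**Figure D3:**
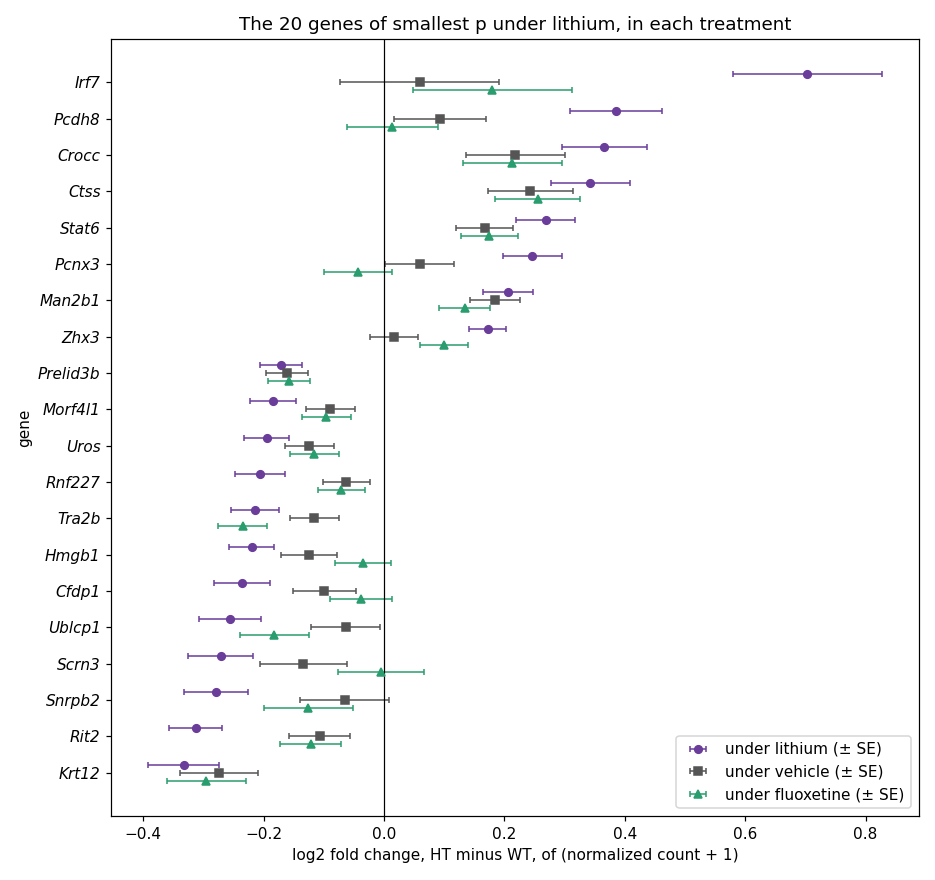
Log2 fold change (HT minus WT, of normalized count + 1) ± SE of the 20 genes with the smallest p under lithium, under lithium, vehicle and fluoxetine, 1 line of symbols per gene. All 20 vehicle values and 19 of 20 fluoxetine values lie on the same side of 0 as the lithium value, with Krt12 and Prelid3b at similar values in all of them and Irf7 far larger under lithium (0.70) than under vehicle (0.06), a difference that did not pass its test.

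Within a single sex no gene was called. Females had 0 calls (0.00%), with 1529 genes at an unadjusted p under 0.05 (8.91%), 0 by edgeR and 17 by DESeq2. Males had 0 calls (0.00%), with 2158 genes at an unadjusted p under 0.05 (12.6%), 0 by edgeR and 138 by DESeq2. The smallest p in females belonged to Crocc (0.50 ± 0.09), Ccdc151, a dynein docking protein of motile cilia (0.44 ± 0.09), and Rit2, each with an adjusted p of 0.25 in limma. In males it belonged to Snrpb2 (-0.40 ± 0.07, adjusted p = 0.067 in limma), Nrn1, an activity-regulated neurite growth factor (-0.43 ± 0.08, adjusted p = 0.090), and Spint2, a serine protease inhibitor (0.50 ± 0.09, adjusted p = 0.090). The test of genotype by sex called 0 genes (0.00%), with 1624 at an unadjusted p under 0.05 (9.47%) and 0 by edgeR or DESeq2. Its smallest p belonged to Ccdc151, at 0.44 in females and -0.09 in males (adjusted p = 0.50). Across genes the female and male fold changes had a correlation of -0.13, and of 0.10 with the olfactory bulb score as a covariate; genes are not independent replicates, and these numbers are descriptive.

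Interferon-induced genes had mostly higher values in HT, with 1 of them called. Of 43 genes listed, 41 were tested; Oasl1 was below the filter and Zbp1 was not analysed here. Only Irf7 was called. At an unadjusted p under 0.05, 14 of the 41 were higher in HT and 0 lower, where 6.49% of all genes were higher and 5.88% lower. The list's median log2 fold change was 0.19, against 0.00 for all genes tested, and 37 of 41 were above 0, against 50.6% of all genes. In both sexes at once 26 of 41 were above 0, against 26.9% of all genes. The median was 0.12 in females and 0.30 in males, with no member's genotype by sex difference passing the test (smallest adjusted p = 0.50). Under vehicle the median was 0.08 and under fluoxetine 0.06, and no member's difference between lithium and vehicle passed (smallest adjusted p = 0.80).

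The summed level of the interferon-induced genes ran from 6785 to 7802 normalized counts in HT (median 7568) and from 6141 to 7298 in WT (median 6679), with overlap. Uba7, the activating enzyme for the ubiquitin-like modifier Isg15, had 84.23 to 141.7 normalized counts in HT (median 108) and 57.67 to 114.7 in WT (median 82.84). Its log2 fold change was 0.40 ± 0.09 (adjusted p = 0.093 in limma), with all 10 HT libraries above the WT mean of their sex but overlapping ranges. Samd9l, an antiviral effector, was at 0.32 ± 0.08 (adjusted p = 0.10), again in 10 of 10 libraries. Ifit1, which binds foreign RNA ends, was at 0.43 ± 0.14, Trim30a, a ubiquitin ligase of innate immunity, at 0.39 ± 0.14, Gbp7, a guanylate-binding protein, at 0.19 ± 0.07 and Oas1a, an oligoadenylate synthetase, at 0.34 ± 0.16, with adjusted p from 0.21 to 0.37 in limma. Oas1a and Ifit1 have close paralogs, which the counting could mix.

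A motif of interferon-responsive promoters was looked for in the bases before the gene starts. Promoters are shown for the 4 members of the interferon list with an unadjusted p under 0.05 that held it, for Ctss, the called gene that held it, and for Irf7, which did not. The first 5 were thus picked for holding the motif, and the shares after the sequences give how often it was found. Each line gives the 120 bases before the RefSeq gene start (GRCm38.p6), 5′ to 3′ on the gene's own strand. Capitals mark matches to GAAANNGAAA, or to TTTCNNTTTC, its reverse complement; in Oas1a, 2 matches overlap and share a run of capitals. The windows are chr3:95526666-95526785 on the + strand for Ctss, chr19:34640769-34640888 (+) for Ifit1, chr3:142530216-142530335 (+) for Gbp7, chr7:104465194-104465313 (-) for Trim30a, chr5:120907526-120907645 (-) for Oas1a and chr7:141266425-141266544 (-) for Irf7.
Ctss: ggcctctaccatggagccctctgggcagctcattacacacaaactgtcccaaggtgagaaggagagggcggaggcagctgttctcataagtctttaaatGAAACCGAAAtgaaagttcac
Ifit1: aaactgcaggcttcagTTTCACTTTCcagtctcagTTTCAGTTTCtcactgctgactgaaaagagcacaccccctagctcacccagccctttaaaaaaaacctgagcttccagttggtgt
Gbp7: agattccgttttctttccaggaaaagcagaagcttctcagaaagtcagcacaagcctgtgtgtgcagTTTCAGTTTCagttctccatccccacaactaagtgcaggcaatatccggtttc
Trim30a: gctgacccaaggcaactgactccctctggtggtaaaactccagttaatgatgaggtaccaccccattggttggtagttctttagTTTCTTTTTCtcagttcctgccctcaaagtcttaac
Oas1a: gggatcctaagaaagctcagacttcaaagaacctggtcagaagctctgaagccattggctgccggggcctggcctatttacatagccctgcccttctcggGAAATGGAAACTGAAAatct
Irf7: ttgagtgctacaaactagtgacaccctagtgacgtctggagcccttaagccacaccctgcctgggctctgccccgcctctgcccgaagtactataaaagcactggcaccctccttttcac
The match nearest the start began 21 bases before it in Ctss, 85 in Ifit1, 53 in Gbp7, 36 in Trim30a and 14 in Oas1a. In Irf7, the member with the largest change, these letters were not in the window. Within 250 bases before the start, 936 of 27025 genes in the promoter table held the motif (3.46%). It was found in 12 of 32 genes of the interferon list that had a promoter (37.5%) and in 4 of the 12 with an unadjusted p under 0.05 (33.3%). Among the genes called it was found in 1 of 11 (9.09%), which was Ctss. A match describes the sequence and does not show a bound site.

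Genes that present antigen and markers of microglia are read here against 6.49% of all genes higher and 5.88% lower at an unadjusted p under 0.05, and 50.6% above 0. Of 16 antigen presentation genes tested, 0 were called, 2 were higher and 0 lower at an unadjusted p under 0.05, 13 were above 0 and the median was 0.13. Those 2 were H2-Q4, a class I histocompatibility gene with near-identical relatives (0.36 ± 0.14), and Tap1, a subunit of the peptide transporter (0.32 ± 0.13). Of 20 microglia and macrophage markers, 1 was called, Ctss, and 3 were higher and 0 lower at an unadjusted p under 0.05, with a median of 0.12. The others were Csf1r, the colony-stimulating factor receptor (0.22 ± 0.07), and C1qc, a complement subunit (0.15 ± 0.07). The summed level of the microglia markers ran from 14349 to 19493 in HT and from 12093 to 16208 in WT. In bulk tissue a change in the number of cells of a type cannot be told apart from a change in RNA per cell.

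Of 13 blood cell markers listed, 8 were tested and 5 were not analysed here, among them the defining markers of T and B lymphocytes. None was called, 5 of 8 were higher and 0 lower at an unadjusted p under 0.05, against 6.49% and 5.88% of all genes, and the median was 0.42. Hbb-bs, a beta globin of red cells, was at 0.49 ± 0.16 and Alas2, the heme synthesis enzyme of red cells, at 0.39 ± 0.16. Ptprc, carried by all white cells, was at 0.25 ± 0.09. The summed level ran from 14185 to 25735 in HT and from 14523 to 19855 in WT. Its part in the values of the interferon-induced and microglia genes was not tested.

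**Figure D4:**
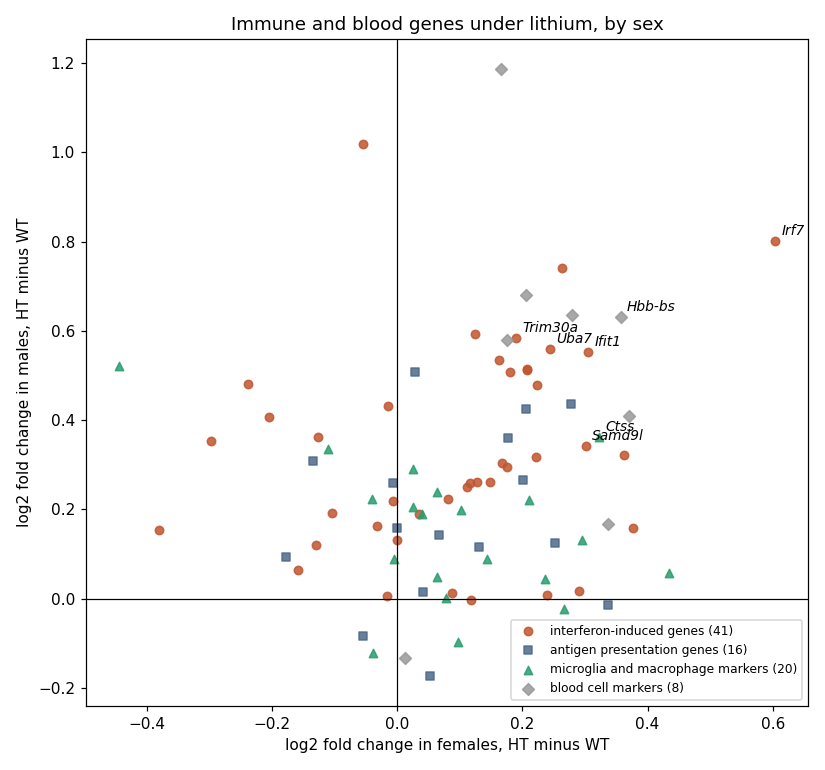
Log2 fold change (HT minus WT) in females (horizontal axis) and in males (vertical axis) of the interferon-induced, antigen presentation, microglia and blood genes tested under lithium, 1 symbol per gene. Of 41 interferon-induced genes 26 lie above 0 on both axes, Irf7 the farthest out in females (0.60) with 0.80 in males.

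Endothelial, meningeal and oligodendrocyte markers are read against the same shares, 6.49% of all genes higher at an unadjusted p under 0.05 and 50.6% above 0. Of 21 endothelial and mural markers, 0 were called, 5 were higher and 1 lower at an unadjusted p under 0.05, and the median was 0.03, or -0.03 without HT female 1. Vwf, the endothelial clotting factor, had 10 of 10 HT libraries above the WT mean of their sex and a fold change of 0.51 ± 0.11 (adjusted p = 0.071 in limma). Of 17 meningeal fibroblast markers, 0 were called, 3 were higher and 0 lower, and all 17 were above 0 with a median of 0.08. Of 13 oligodendrocyte precursor markers 0 were called and 2 were higher, Cspg4 (0.23 ± 0.09) and Olig2 (0.23 ± 0.09), with 13 of 13 above 0. Mature oligodendrocyte markers had 0 of 16 at an unadjusted p under 0.05 and a median of 0.13, and their summed level ranged from 92400 to 194071 in HT and from 59547 to 148729 in WT.

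Nuclear genes of oxidative phosphorylation leaned the other way. Of 75 tested, 0 were called, but 15 were lower, against 5.88% of all genes, and 0 higher at an unadjusted p under 0.05, and 64 of 75 were below 0. The median was small, at -0.05, and 43 of 75 were below 0 in both sexes, against 25.0% of all genes. Ndufs4, a complex I subunit, was at -0.19 ± 0.05 (adjusted p = 0.11 in limma), Ndufv3, another complex I subunit, at -0.16 ± 0.04 (adjusted p = 0.11), and Atp5c1, a subunit of ATP synthase, at -0.15 ± 0.05 (adjusted p = 0.19). The list's median was -0.05 under vehicle and -0.13 under fluoxetine. Of 13 mitochondrially encoded genes 0 were called, and mt-Atp6 (-0.43 ± 0.14) and mt-Co2 (-0.62 ± 0.25) had an unadjusted p under 0.05. The median of the 13 was 0.02 in females and -0.18 in males, and 4 of 13 were below 0 in both sexes. mt-Atp6 was at -0.15 in females and -0.72 in males. No member's genotype by sex difference passed the test in limma (smallest adjusted p = 0.52).

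Proteasome genes act downstream of ubiquitin ligases. Of 32 subunits, 0 were called, 5 were lower and 0 higher at an unadjusted p under 0.05, where 5.88% of all genes were lower. Of the 32, 26 were below 0, 20 of them in both sexes (25.0% of all genes), and the median was -0.06. Psma2, a core subunit, was at -0.16 ± 0.05 (adjusted p = 0.19 in limma) and Psmd6, a lid subunit, at -0.10 ± 0.04. Of 11 Trip12 partners and substrates tested, none but Trip12 had an unadjusted p under 0.05, and of 20 other HECT ligases expressed in brain none did.

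In the stress and activity lists no gene was called. Of 20 endoplasmic reticulum chaperone and unfolded protein genes, 0 were called, 8 were higher and 1 lower at an unadjusted p under 0.05, where 6.49% of all genes were higher, and the median was 0.11. Syvn1, the ubiquitin ligase of endoplasmic reticulum quality control, was at 0.19 ± 0.06, Pdia4, a disulfide isomerase, at 0.24 ± 0.08, and Hspa5, the main chaperone, at 0.23 ± 0.10, while the sensor Atf6 was at -0.16 ± 0.06. Of 18 cytosolic heat shock genes 0 were called and 5 were higher, but 8 of 18 were below 0, 7 of them in both sexes, and the median was 0.02. Hspa1b was at 0.56 ± 0.14 (adjusted p = 0.099 in limma), and is a gene with a near-identical copy, Hspa1a (0.26 ± 0.10). Of 27 immediate early genes 0 were called, 4 were higher and 0 lower, among them Egr4 (0.35 ± 0.10) and Fosb (0.42 ± 0.20, with 0.09 in females and 0.76 in males). Above 0 lay 23 of 27, 16 of them in both sexes (26.9% of all genes). The median was 0.11, against -0.02 under vehicle and 0.23 under fluoxetine. The summed level overlapped widely, at 28606 to 56877 in HT and 33992 to 51457 in WT.

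Of 27 presynaptic release genes 0 were called and 5 were lower, with none higher, at an unadjusted p under 0.05, where 5.88% of all genes were lower. Below 0 lay 20 of 27, and the median was -0.06, at -0.01 in females and -0.13 in males. Cplx1, which clamps vesicle fusion, was at -0.13 ± 0.05 and Vamp1, a vesicle fusion protein, at -0.20 ± 0.08. Among 17 interneuron markers 0 were called, and 2 were lower and 0 higher at an unadjusted p under 0.05. Below 0 lay 13 of 17, but only 2 in both sexes, against 25.0% of all genes. Their median was -0.18 in females and 0.16 in males, and 0.01 over both sexes with the olfactory bulb covariate. Pvalb, which marks fast-spiking interneurons, had 10 of 10 HT libraries below the WT mean of their sex, at -0.40 ± 0.10 (adjusted p = 0.10 in limma). It was at -0.275 in females and -0.527 in males. Of 28 postsynaptic scaffold genes 3 were higher (6.49% of all genes) and 0 lower, with Shank2, a scaffold linked to autism, at 0.21 ± 0.05 (adjusted p = 0.11 in limma). Shank2 was at 0.33 in females and 0.09 in males, and its genotype by sex difference did not pass the test (adjusted p = 0.50 in limma).

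In the pathways that lithium acts on no gene was called. Of 22 inositol genes 0 were called, 2 were higher and 3 lower at an unadjusted p under 0.05, against 6.49% and 5.88% of all genes. Only 4 lay above 0, where 50.6% of all genes did, and 18 lay below, with a median of -0.04. Those higher were Isyna1, which makes inositol (0.24 ± 0.07, adjusted p = 0.14 in limma), and Slc5a3, which takes it up (0.28 ± 0.09, adjusted p = 0.19), each in 9 of 10 HT libraries. For Isyna1 the normalized count was 886.6 on average in HT and 750.3 in WT. Among the 3 that were lower were Plcb4 (-0.12 ± 0.05, adjusted p = 0.35 in limma) and Cdipt (-0.09 ± 0.04, adjusted p = 0.32). Of 26 genes of the GSK3 and Wnt pathway 0 were called, 2 were higher and 1 lower, and the median was 0.05. Axin2, a transcriptional target of Wnt signalling, was at 0.09 ± 0.04 (adjusted p = 0.40 in limma).

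**Figure D5:**
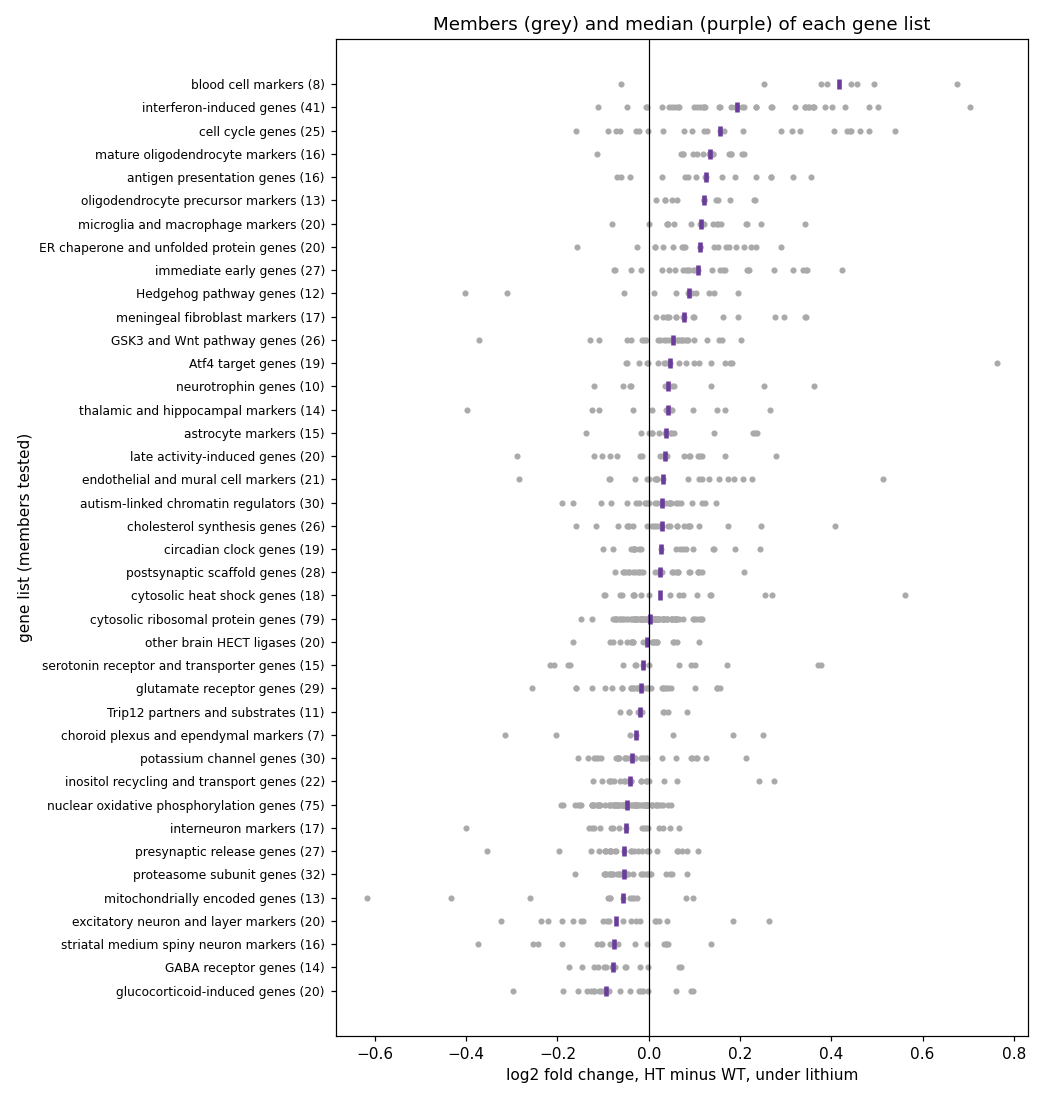
Log2 fold change (HT minus WT) under lithium of the tested members (grey points) of 40 of the 41 gene lists, with the median of each in purple and the number tested in brackets; the olfactory bulb markers, which run far wider, are left out. Medians reach 0.42 for blood cell markers and 0.19 for interferon-induced genes, and the others shown lie within 0.16 of 0.

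Of 25 cell cycle genes 0 were called, 8 were higher and 0 lower at an unadjusted p under 0.05, where 6.49% of all genes were higher, and the median was 0.16. Mki67, a marker of dividing cells, had a mean of 98.36 normalized counts in HT and 69.61 in WT, a log2 fold change of 0.48 ± 0.13 (adjusted p = 0.14 in limma), with 8 of 10 HT libraries above the WT mean of their sex. Top2a, the topoisomerase of dividing cells, was at 0.44 ± 0.16 and Ccnb2, a mitotic cyclin, at 0.44 ± 0.15. The list's median was 0.19 under vehicle and 0.06 under fluoxetine.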

How the data were processed

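Per the labels' protocols, libraries of prefrontal cortex RNA were made with the TruSeq Stranded mRNA kit. The deposited table holds, for 18088 genes, a signal value per library that the authors scaled with DESeq2's size factors (normalized counts). The submitters' processing notes name Salmon 0.11.2, R 3.6.0, DESeq2 1.19.11 and GRCm38; the annotation, the step to genes and the use of strand are not given in the sources used here. Values were whole multiples of a step in each library (100% within 0.01), which gave back whole reads, and 18077 gene IDs matched the GRCm38 annotation. The 40 pairs of libraries within a lithium group differed by more than sampling noise (chi-square per gene 9.68 or more), so none was merged.

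Values were compared as log2(value + 1) with limma-trend 3.58.1 in R 4.3.3, with genotype and sex as terms and 17 residual degrees of freedom. The filter kept genes that reached 10 normalized counts in 5 or more of the 20 libraries (17157 tested, 931 removed). P-values are two-sided and adjusted by Benjamini-Hochberg over all genes tested, and calls are at 0.05. Fold changes on this scale understate the change of low genes. Sexes were fitted with 1 mean per genotype and sex, and other treatments with 1 mean for each of 12 groups over 60 libraries (17804 genes). The test was checked on simulated data, in which each gene was drawn independently of the others. There 35 of 67 genes changed 1.2-fold and 66 of 67 changed 1.5-fold were called. Of the 178 genes called in it, 11 were unchanged. The lithium comparison itself called 12, so the p needed for a call was smaller there than in the simulation. No sex, replicate or olfactory bulb difference was simulated. The simulation may therefore overstate how often small changes are found in these data.

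The text names Trip12; the called genes and otherwise the 20 smallest p whose mean reached 50 normalized counts; up to 4 members of smallest p per list and 3 genes per other contrast, without Gm or Rik names and pseudogenes. Gbp7, Ifit1, Oas1a and Trim30a (shown for their promoters), Hspa5, tissue and sex markers and antisense partners were named outside that rule, after their values were seen. Some genes that the rule picks are not reported here. The comparison, its 41 gene lists and their members were chosen with earlier results of these data known. Alternatives were TMM and quantile scaling, other filters and pseudocounts, edgeR 4.0.16 and DESeq2 1.42.0 on the recovered reads, array weights, a depth covariate, a replicate block, no sex block, other libraries in the fit, each library left out, and, added later, an olfactory bulb covariate (and no sex block for single genes and lists).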

Additional observations from a re-analysis of the deposited data

Results flagged for a closer look

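Trip12 and the 20 genes named from the comparison were checked for a library far from the other 4 of its group, in 84 groups of 5. In 5 groups the gap from the extreme library to its neighbour was above 0.71 of the group's range; chance gives about 1 in 20 such groups. Uros reached 511.6 normalized counts in HT female 1, where the other HT females had 446 to 461.9. Cfdp1 reached 1991.6 in WT female 3, with the others at 1731.2 to 1804.4. Scrn3 reached 949.1 in WT female 5, with the others at 706.7 to 749.6. Ublcp1 was at 880.7 in WT male 5, with the others at 1112.6 to 1170.6. Morf4l1 was at 8162.8 in HT female 1, with the others at 9229.9 to 9445.8. The extreme values of Uros and Ublcp1 lay on the side of the other genotype, and those of Cfdp1, Scrn3 and Morf4l1 away from it.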

How the results depend on the processing

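The count of 12 genes called under lithium was 12 with TMM, 10 with no filter or a pseudocount of 0.5, and 13 by edgeR. It moved to 19 with quantile normalization or a pseudocount of 5, 23 with a filter at 50, 57 with array weights, 102 with all 60 libraries in the fit, 119 with the olfactory bulb covariate and 213 by DESeq2, where 1664 genes had no adjusted p. It moved to 1 with the depth covariate or no sex block and to 0 with the replicate block (1923 genes at an unadjusted p under 0.05). Same-numbered libraries paired only in part: 3 of 10 pairs correlated above 0.1, and 3 of 10 libraries matched their own number best. These were male 1 (0.465), male 4 (0.234) and male 5 (0.301). All other pairs, among them every female pair, had negative correlations, from -0.452 to -0.055. The labels do not say what the replicate numbers stand for. The cause of the changes in the count of calls was not tested. Leaving out 1 library gave 1 to 38 calls. It was 38 without HT female 5, 26 without HT male 3, 23 without HT female 4 and 18 without WT male 3. It was 8 without HT male 1, 4 without WT female 5 and 3 without HT male 4. It was 2 without HT female 1 or 2 or WT male 1, 2 or 5, and 1 without HT female 3, HT male 2 or 5, WT female 1, 2, 3 or 4, or WT male 4.

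Calls in females were 0 under all alternatives but DESeq2, with 17. In males they were 1 with quantile normalization, 2 with the depth covariate, 2 with the replicate block, 5 with the olfactory bulb covariate, 40 with all 60 libraries and 138 by DESeq2. They were 3 without WT male 1, 1 without HT male 4 and 5 without HT male 5, and 0 without any other library. Genotype by sex and lithium minus vehicle had 0 calls under every alternative, and lithium minus fluoxetine 0 under all but DESeq2, with 1. Lists with at least 1 called member numbered 2. The number was 0 with the depth covariate, the replicate block or no sex block, 1 with no filter or a pseudocount of 0.5, 4 with quantile normalization, 7 with array weights, 7 with all 60 libraries, 12 with the olfactory bulb covariate and 14 by DESeq2, and ran from 0 to 4 when 1 library was left out (4 without HT male 3). Trip12 kept its sign and stayed uncalled throughout, with 0.08 under the replicate block and 0.07 to 0.10 when 1 library was left out. The median log2 fold change of the interferon-induced genes ran from 0.17 to 0.22 over the alternatives, and that of the nuclear oxidative phosphorylation genes from -0.06 to -0.03. Over the 14 alternatives and the 20 libraries left out in turn, no gene named by the rule changed sign; Wif1, Ccnb1 and Ccnb2 had 13 alternatives, since the filter at 50 removed them. Of the 14, Rit2 lost its call with the replicate block only (adjusted p = 0.061), while Irf7 lost it with 3, among them no sex block (adjusted p = 0.055), and without 13 of the 20 libraries.

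With 10 libraries per genotype, the median gene's SE (log2) was 0.07, and within females 0.10. A gene that was not called may still differ.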

Other observations

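Single members of the transmitter, channel and clock lists are given here. The lists are read against 6.49% of all genes higher and 5.88% lower at an unadjusted p under 0.05. Of 15 serotonin receptor and transporter genes tested under lithium 0 were called, 1 was higher and 2 were lower at that threshold. Htr2a, the main excitatory serotonin receptor of cortex, was at -0.18 ± 0.05 (adjusted p = 0.13 in limma) with a mean of 1528 normalized counts in HT and 1726 in WT. Of 29 glutamate receptor genes 0 were called, 2 were higher and 2 lower at that threshold. Grik4 and Grik2, both kainate receptor subunits, lay on opposite sides, at -0.26 ± 0.07 (adjusted p = 0.12 in limma, below the WT mean of their sex in 10 of 10 HT libraries) and 0.16 ± 0.04 (adjusted p = 0.12, above it in 9 of 10). Of 30 potassium channel genes 0 were called, 3 were higher and 1 was lower at that threshold. Below 0 lay 22 of the 30, and the median was -0.04. Kcnj3, an inward rectifier, was at -0.16 ± 0.05 and Kcnn3, a calcium-activated channel, at 0.21 ± 0.07. Cry2, a repressor of the circadian clock, was at 0.24 ± 0.06 (adjusted p = 0.11 in limma) and above the WT mean of its sex in 10 of 10 HT libraries. Of 19 clock genes 0 were called, and Cry2 was the only 1 with an unadjusted p under 0.05, a count near the share of all genes higher.

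Outside the lists, Hmmr, a spindle protein of dividing cells, was named after its values were seen because its genotypes did not overlap. It had 37.48 to 55.85 normalized counts in HT and 21.37 to 37.36 in WT, a log2 fold change of 0.52 ± 0.11 (adjusted p = 0.071 in limma).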
